A study of Homo sapiens with 8 samples.

Results

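Metallothioneins and the transporters of zinc and copper are the genes described here. They were taken by symbol: the MT1 genes, MT2A and MT3, the SLC30A and SLC39A families, SLC31A1 and SLC31A2, and the single genes MTF1, ATP7A, ATP7B, CCS and ATOX1. A platform annotation that pairs probe sets with gene symbols gave 40 such genes among the 18404 genes measured. For 2 further matching symbols, MT1A and MT1L, no probe set carried that symbol alone, and they were not analysed here. The cells were HepG2, a human liver tumour line that keeps many hepatocyte functions, hybridised to 8 single-channel expression arrays. The 4 Senescent arrays came from cultures that had received H2O2 at 0.5 mM for 60 minutes, hydrogen peroxide being an oxidant that can bring on a lasting arrest of division. The 4 Normal arrays came from cultures given medium alone. All wells were then washed and kept in culture for 5 days before the senescent phenotype was tested; the time of RNA extraction is not stated separately. The design text calls the 4 cultures of a group biological replicates, and all of them are of the same cell line.

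Metallothioneins are small cysteine-rich proteins that bind zinc, copper and cadmium, buffer the free metal in the cell and react with oxidants. Their genes are switched on by MTF1, a zinc finger protein that senses zinc and binds metal response elements in promoters. Zinc leaves the cytosol through SLC30A (ZnT) proteins, outward or into organelles, and enters it through SLC39A (ZIP) proteins. Copper enters through SLC31A1, is handed on by chaperones such as ATOX1 and CCS, and is pumped into the secretory pathway or out of the cell by ATP7A and ATP7B; the liver uses ATP7B to put copper into ceruloplasmin and bile.

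The metal response element is the sequence through which metallothionein genes answer zinc, so promoter windows are shown for genes of the metallothionein cluster and for SLC30A1, the zinc exporter that is a known MTF1 target. Each window holds the 250 bases before the RefSeq gene start, read 5′ to 3′ on the gene's strand in build GRCh38.p14. Capitals mark every match to the element's core, TGCACNC or TGCGCNC, on either strand, where N is any base; overlapping matches were counted separately, and capitals of adjoining matches run together.
MT2A, chr16:56608334-56608583 (+ strand): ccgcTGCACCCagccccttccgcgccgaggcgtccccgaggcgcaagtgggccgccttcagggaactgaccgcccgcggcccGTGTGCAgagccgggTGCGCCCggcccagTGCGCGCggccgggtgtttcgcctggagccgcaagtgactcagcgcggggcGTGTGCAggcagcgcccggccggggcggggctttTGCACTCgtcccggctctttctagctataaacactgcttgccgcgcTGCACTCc
MT1X, chr16:56682220-56682469 (+ strand): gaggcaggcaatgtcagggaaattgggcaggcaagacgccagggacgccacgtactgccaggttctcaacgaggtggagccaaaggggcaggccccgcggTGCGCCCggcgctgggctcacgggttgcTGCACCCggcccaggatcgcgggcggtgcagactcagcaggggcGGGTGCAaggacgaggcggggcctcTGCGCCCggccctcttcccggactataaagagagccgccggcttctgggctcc
MT1B, chr16:56651636-56651885 (+ strand): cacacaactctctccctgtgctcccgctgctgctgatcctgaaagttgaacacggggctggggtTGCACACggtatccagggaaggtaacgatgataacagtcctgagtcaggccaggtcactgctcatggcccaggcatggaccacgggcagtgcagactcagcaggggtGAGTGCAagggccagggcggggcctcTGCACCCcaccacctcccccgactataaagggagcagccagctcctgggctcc
MT1H, chr16:56669564-56669813 (+ strand): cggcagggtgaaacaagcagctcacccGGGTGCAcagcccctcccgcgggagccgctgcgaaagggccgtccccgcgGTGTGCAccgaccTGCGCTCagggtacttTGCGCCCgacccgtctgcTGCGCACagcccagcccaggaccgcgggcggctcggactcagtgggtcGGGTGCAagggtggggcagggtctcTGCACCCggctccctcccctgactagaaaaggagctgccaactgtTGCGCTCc
SLC30A1, chr1:211579162-211579411 (- strand): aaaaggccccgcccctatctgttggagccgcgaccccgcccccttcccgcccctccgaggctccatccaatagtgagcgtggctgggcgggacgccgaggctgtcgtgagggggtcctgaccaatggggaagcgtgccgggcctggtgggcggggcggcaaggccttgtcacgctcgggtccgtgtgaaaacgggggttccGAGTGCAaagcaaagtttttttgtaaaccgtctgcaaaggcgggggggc

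RefSeq windows were matched for 31 of the 40 genes; MT1E, MT1F, MT1G, MT1M, MT3, SLC30A8, SLC39A4, SLC39A14 and SLC31A2 were not matched. MT2A held 7 matches, MT1X 4, MT1B 3 and MT1H 8, while SLC30A1 held 1. Across 35116 windows of all genes, 24.8% held at least 1 match and 1.58% at least 3, which all 4 metallothionein windows did. Among SLC30A genes 5 of 9 had a match in at least 1 of their windows, among zinc importers 5 of 12 and among copper genes 3 of 5. These counts are per gene, and some genes had several windows. The 24.8% is per window, so the class counts cannot be set against it. A match is a description of letters and was not tested as a binding site.

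Of the 40 genes 13 rose and 7 fell in Senescent cells, and 20 did not pass the test. A call is an adjusted p under 0.05 from limma, a linear model with moderated variances, adjusted by Benjamini-Hochberg over all 18404 genes. Across all genes 34.0% were called, 19.2% higher and 14.8% lower, so a called share of 50.0% among these 40 genes is set against a broad response. Their median log2 difference, Senescent minus Normal, was 0.097, beside -0.022 over all genes. Most of the differences were small: 4 of the 40 were called with a log2 difference of at least 0.5 in size, where 12.0% of all genes were. The groups did not overlap, with every Senescent array higher, for 12 of the 40 genes (18.9% of all genes), and with every Senescent array lower for 6 (14.8% of all genes). In such cultures, a change in every cell and a larger change in some of the cells cannot be told apart. Differences below are log2 values with their standard error, levels are log2 values, with the SD where a mean is given, and each group holds 4 arrays (n = 4); levels of different probe sets are not compared with each other.

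**Figure D1:**
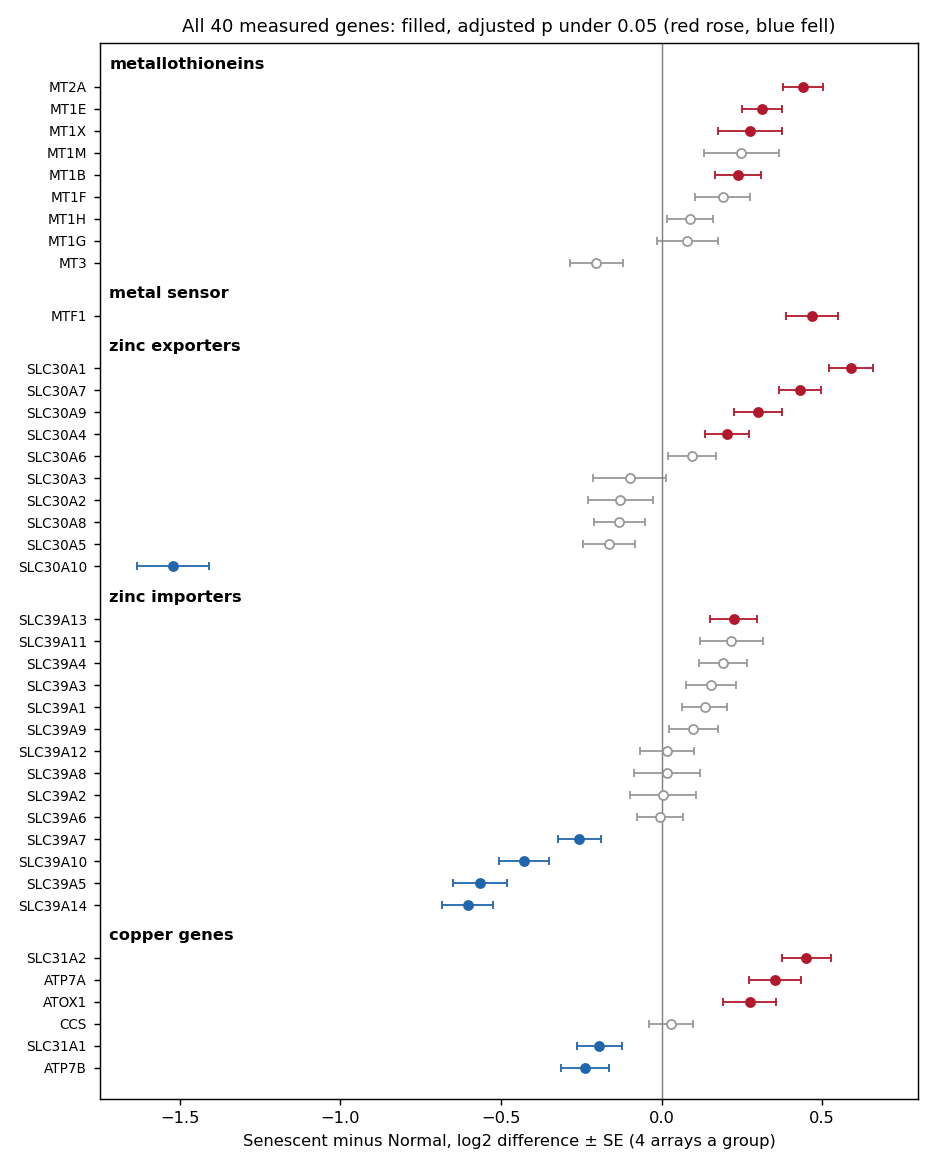
Log2 difference, Senescent minus Normal, of each of the 40 genes by class, with its standard error as a horizontal bar (4 arrays per group); filled red points rose, filled blue points fell and open points did not pass the test. SLC30A10 stands far to the left at -1.52, and all other differences lie between -0.60 and 0.59.

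The arrays were alike in scale, with medians between 6.85 and 6.93. CDKN1A, the cyclin-dependent kinase inhibitor p21, rose by 2.36 ± 0.067, while the proliferation marker MKI67 fell by 1.32 ± 0.10 and the nuclear lamin gene LMNB1 by 1.07 ± 0.10. Of 10 hepatocyte markers, 9 were measured and all 9 lay above the array medians in both groups. They averaged 11.64 to 11.92 on Senescent arrays and 12.10 to 12.15 on Normal arrays, and 6 fell and 1 rose. Beside these and the marker counts below, 14.8% of all genes were called lower and 19.2% higher. Of the leukocyte markers PTPRC, the pan-leukocyte antigen, and CD3E, the T cell receptor component, lay below the array medians and CD68 and CD14 above them. PTPRC lay at 4.09 ± 0.12 in Senescent cells and 4.23 ± 0.080 in Normal cells, CD68 at 10.36 ± 0.087 in Senescent cells and 9.56 ± 0.082 in Normal cells, and CD14 at 7.53 ± 0.066 in Senescent cells and 7.26 ± 0.044 in Normal cells. The 4 endothelial markers averaged 6.05 to 6.25 on Senescent arrays and 6.06 to 6.20 on Normal arrays, with 1 lower and 0 higher. The 5 fibroblast markers averaged 6.41 to 6.67 on Senescent arrays and 6.62 to 6.72 on Normal arrays, with 1 higher and 1 lower. The 4 leukocyte markers averaged 6.83 to 6.98 on Senescent arrays and 6.69 to 6.74 on Normal arrays, and 2 of them rose, CD68, which lysosome-rich cells of many kinds also express, by 0.80 ± 0.071 and CD14 by 0.27 ± 0.064. Their part in the results below was not tested. When limma weighted arrays by their scatter, the arrays numbered 3 had the lowest weight of each group, 0.369 for Senescent and 0.425 for Normal. Without both of them 22 of the 40 genes were called, beside 7852 of all 18404 genes. With all 8 arrays these counts were 20 and 6259.

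Among the 9 metallothioneins 4 rose, MT2A, MT1E, MT1X and MT1B, and 0 fell, a called share of 44.4% beside the 34.0% of all genes. The median difference of the 9 was 0.24, and 8 of the 9 differences were positive. MT2A, an abundant metallothionein of human liver, showed the clearest rise. Its log2 levels were 13.14, 13.11, 13.19 and 13.20 on Senescent arrays 1 to 4 and 12.76, 12.67, 12.70 and 12.75 on Normal arrays 1 to 4. Every Senescent array lay above every Normal array, and the gap between the groups was wider than the spread within either. The difference was 0.44 ± 0.062, or 1.36-fold (limma adjusted p = 7.64e-05). A second probe set annotated to MT2A, with a level of its own, gave 0.45 ± 0.060, and its arrays did not overlap either, at 11.89, 11.88, 11.88 and 11.92 in Senescent cells against 11.47, 11.41, 11.41 and 11.50 in Normal cells.

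MT1E, a widely expressed metallothionein, measured 10.45, 10.45, 10.51 and 10.50 on Senescent arrays and 10.21, 10.23, 10.10 and 10.13 on Normal arrays. The Senescent arrays were all higher, by 0.31 ± 0.063 on average (limma adjusted p = 0.00145). MT1B lay at 8.34, 8.34, 8.50 and 8.35 in Senescent cells against 8.18, 8.22, 8.01 and 8.17 in Normal cells. Its groups did not overlap either, although Senescent array 3 stood above the other 3 and Normal array 3 below its group. The difference was 0.24 ± 0.071 (limma adjusted p = 0.0189), and 0.15 without both arrays numbered 3, where the adjusted p was 0.0522.

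MT1X was the weakest of the 4 calls. Its levels were 9.87, 10.00, 9.67 and 9.66 on Senescent arrays and 9.55, 9.74, 9.31 and 9.51 on Normal arrays. The groups overlapped, since Normal array 2 lay above Senescent arrays 3 and 4. The difference of 0.27 ± 0.10 had an adjusted p of 0.0483 in limma. It was no longer called without Senescent array 1 (0.25), Senescent array 2 (0.21), Normal array 1 (0.28), Normal array 3 (0.20) or Normal array 4 (0.27), nor without both arrays numbered 3 (0.25). Without those 2 arrays 2 metallothioneins were called higher, MT2A and MT1E, and MT3 was called lower (-0.29).

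**Figure D2:**
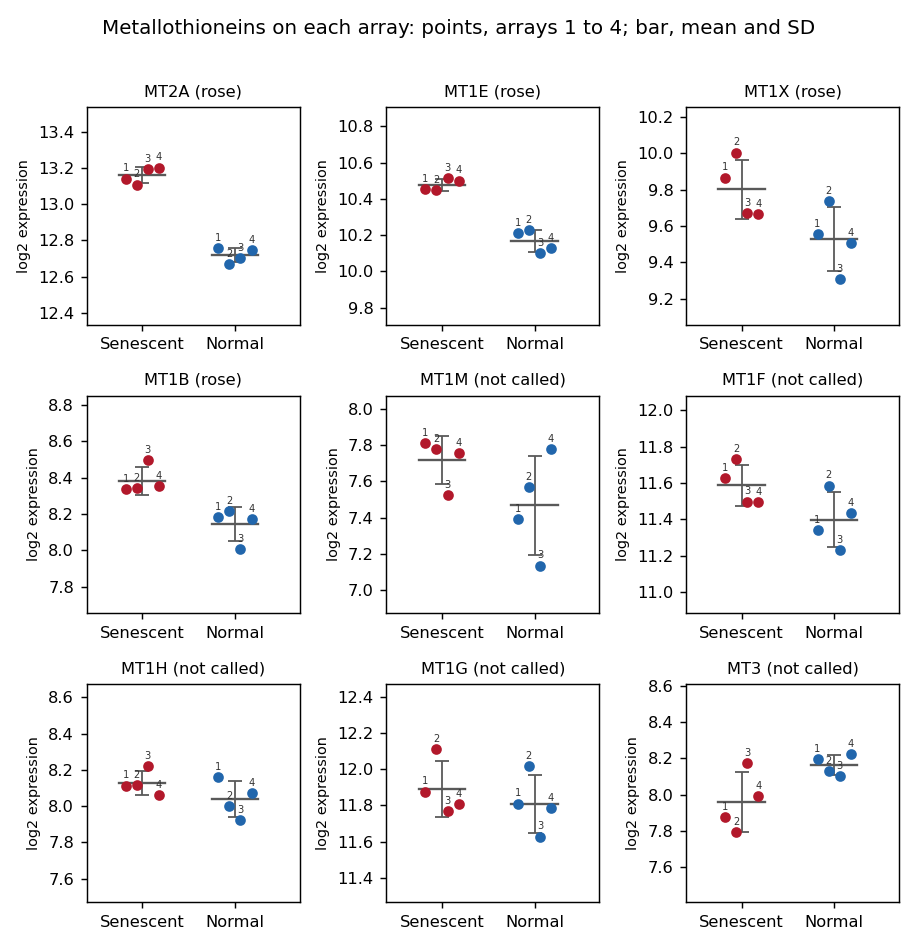
Log2 expression of the 9 metallothioneins on each array, with Senescent on the left and Normal on the right of every panel; numbered points are arrays 1 to 4, the horizontal line is the group mean and the bar its SD, and all panels span the same log2 range. MT2A, MT1E and MT1B separate the groups completely, whereas the points of the other 6 genes overlap. Over all genes, every Senescent array lay above every Normal array for 18.9%.

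The other 4 MT1 genes had positive differences that did not pass the test. MT1M measured 7.81, 7.78, 7.52 and 7.76 in Senescent cells against 7.39, 7.57, 7.14 and 7.78 in Normal cells, a difference of 0.25 ± 0.12 (limma adjusted p = 0.126). The Normal arrays of MT1M ran from below the lowest Senescent array to close to the highest. MT1F measured 11.62, 11.73, 11.50 and 11.49 in Senescent cells against 11.34, 11.59, 11.23 and 11.44 in Normal cells (0.19 ± 0.086, limma adjusted p = 0.113). Leaving out Normal array 4 brought MT1M past the threshold at 0.35, and leaving out Normal array 2 did so for MT1F at 0.25, those being the highest Normal arrays of each gene. Without Normal array 3, their lowest, the differences were smaller and not called, at 0.14 for MT1M and 0.13 for MT1F. With arrays weighted by their scatter both were called.

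MT1G and MT1H were closest to no difference. MT1G lay at 11.88, 12.11, 11.77 and 11.81 on Senescent arrays and 11.81, 12.02, 11.63 and 11.79 on Normal arrays, so that the groups covered nearly the same range. The difference of 0.080 ± 0.095 had a 95% interval of -0.12 to 0.28 on the log2 scale, unadjusted (limma adjusted p = 0.575). It was 0.0073 without Senescent array 2, 0.019 without Normal array 3, 0.12 without Senescent array 3 and 0.15 without Normal array 2, none of them called. MT1H lay at 8.11, 8.12, 8.22 and 8.06 on Senescent arrays and 8.16, 8.0, 7.92 and 8.07 on Normal arrays, also with overlap. Its difference was 0.089 ± 0.071, with a 95% interval of -0.065 to 0.24 (limma adjusted p = 0.386), and it was 0.019 without both arrays numbered 3. The promoter window of MT1H held the most element matches of the 4 windows shown for metallothioneins.

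MT3, the metallothionein best known from brain, was the exception in sign. Its levels were 7.88, 7.79, 8.17 and 7.99 on Senescent arrays and 8.20, 8.13, 8.10 and 8.22 on Normal arrays. Senescent arrays 1, 2 and 4 were below all Normal arrays, and Senescent array 3 lay among them. The difference of -0.20 ± 0.083 did not pass (limma adjusted p = 0.0751), but passed at -0.27 without Senescent array 3. Without Senescent array 2, the lowest, it was -0.15 and not called. MT3 was also called lower with array weights (-0.27) and where dim genes were left out (limma adjusted p = 0.0462).

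Human metallothionein genes lie side by side on chromosome 16. RefSeq lists 16 metallothionein genes and pseudogenes in that stretch, of which 13 were measured. Along the cluster, MT3 was the only measured gene with a negative difference, between MT4 at 0.14 and MT2A at 0.44. The called members were spread along it: MT2A and MT1E near the start, MT1B in the middle and MT1X at the far end, with the uncalled MT1F, MT1G and MT1H lying between MT1B and MT1X. Of the other metallothionein family genes, 6 of 9 listed had a value, 2 rose and 0 fell, and all 6 differences were positive. Their called share of 33.3% was close to the 34.0% of all genes. The 2 that rose were the pseudogenes MT1P3, at 0.42 ± 0.069, and MT1DP, at 0.36 ± 0.064. Because metallothionein genes and pseudogenes are near-identical in sequence, signal may be shared between their probe sets, and a value for any single copy is uncertain.

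**Figure D3:**
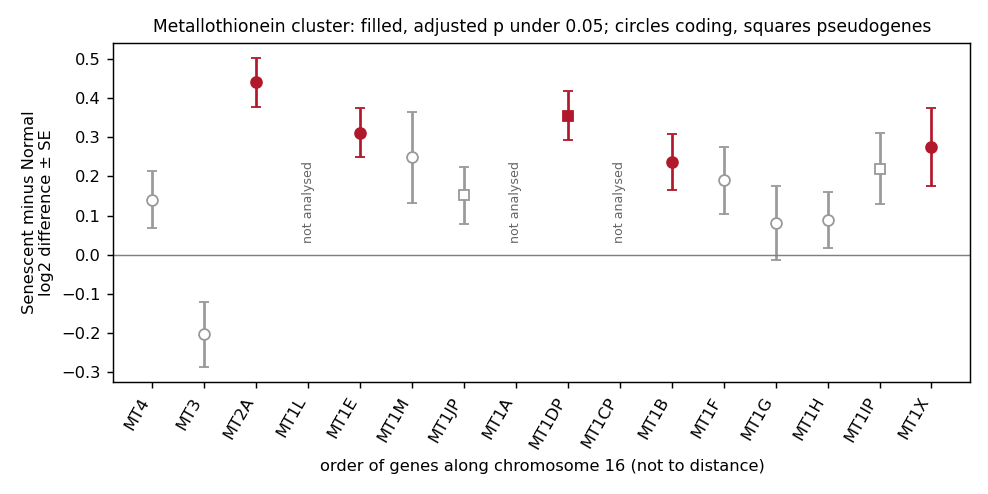
Log2 difference, Senescent minus Normal, with its standard error for 13 measured genes of the metallothionein cluster, in their order along chromosome 16 and not to distance; circles are coding genes, squares pseudogenes, filled symbols were called, and 3 genes were not analysed. MT3 alone lies below 0, at -0.20, and MT2A is highest at 0.44.

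Within a group the metallothioneins did not vary as a single block. On Normal array 3 all 9 lay below the mean of the Normal arrays, by 0.14 on average, with MT1M lowest at -0.33. MT1F, MT1G and MT1X deviated together: they were 0.15, 0.22 and 0.20 above their mean on Senescent array 2, and 0.19, 0.21 and 0.21 above it on Normal array 2. MT2A deviated the other way, by -0.053 on Senescent array 2 and -0.050 on Normal array 2. MT3, MT1B and MT1H instead stood above their mean on Senescent array 3, where MT1F, MT1G and MT1X were below it. These deviations are descriptions of 8 arrays.

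**Figure D4:**
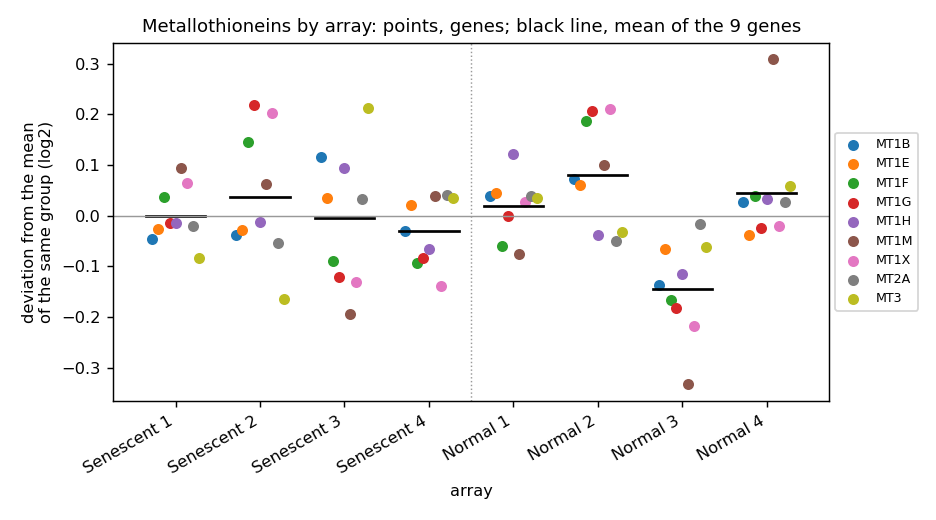
Deviation of each metallothionein from the mean of its own group on the log2 scale, for Senescent arrays 1 to 4 on the left and Normal arrays 1 to 4 on the right; coloured points are genes and the black line is the mean of the 9. On Normal array 3 all points lie below 0, and on the other 7 arrays they lie on both sides.

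MTF1, the zinc sensor that drives metallothionein transcription, rose. Its log2 levels were 8.86, 8.80, 8.61 and 8.81 on Senescent arrays and 8.16, 8.28, 8.45 and 8.32 on Normal arrays. All Senescent arrays were higher, Senescent array 3 by the least. The difference was 0.47 ± 0.081, or 1.38-fold (limma adjusted p = 0.000417). Of 7 other genes listed as MTF1 targets, all measured, 2 rose and 2 fell, with a median of -0.0032; the called share was 57.1%, beside 34.0% of all genes. The selenoprotein gene SELENOW rose by 0.92 ± 0.092 and CSRP1, a zinc-binding LIM domain protein, by 0.77 ± 0.088. NDRG1, which hypoxia also induces, fell by 1.21 ± 0.094 and HAMP, the iron hormone hepcidin, by 0.45 ± 0.096.

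Genes of the SLC30A family, grouped here as zinc exporters, went both ways, with 4 of 10 higher, 1 lower and a median of -0.0024. The only called fall was that of SLC30A10, which in humans exports manganese rather than zinc. The called share was 50.0%, beside 34.0% of all genes (19.2% higher and 14.8% lower). The 2 that act at the cell surface, SLC30A1 for zinc and SLC30A10 for manganese, moved in opposite directions. SLC30A1, which pumps zinc out of the cell, measured 9.07, 9.17, 8.98 and 9.14 on Senescent arrays and 8.49, 8.43, 8.58 and 8.49 on Normal arrays. The groups were well apart, and the rise of 0.59 ± 0.069, or 1.51-fold, was the largest among the 40 genes (limma adjusted p = 1.34e-05).

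SLC30A10, which in humans exports manganese rather than zinc, fell more than any other of the 40. Its levels were 7.93, 8.26, 7.72 and 7.65 on Senescent arrays against 9.44, 9.45, 9.30 and 9.44 on Normal arrays. No Senescent array came within 1 log2 unit of a Normal array; the Senescent arrays spread more, with array 2 highest, than the Normal arrays did. It was 2.87-fold lower (-1.52 ± 0.11, limma adjusted p = 1.97e-07), and ranked 35 by size among the 2732 genes that fell.

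Of the exporters that load the secretory pathway, SLC30A7, which carries zinc into the Golgi for enzymes such as alkaline phosphatase, rose. It measured 10.79, 10.81, 10.71 and 10.76 in Senescent cells against 10.36, 10.45, 10.28 and 10.26 in Normal cells, with no overlap (0.43 ± 0.067, limma adjusted p = 0.000171). SLC30A5 and SLC30A6, which work together as a dimer in the same compartment, did not pass. Their differences were -0.16 ± 0.082 and 0.095 ± 0.074, with 95% intervals of -0.34 to 0.012 and -0.064 to 0.25. SLC30A9, a mitochondrial zinc exporter, measured 9.79, 9.82, 9.60 and 9.71 in Senescent cells against 9.53, 9.40, 9.48 and 9.31 in Normal cells. All Senescent arrays were higher, at a difference of 0.30 ± 0.075 (limma adjusted p = 0.00618).

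The vesicular exporters SLC30A2, SLC30A3, SLC30A4 and SLC30A8 fill secretory vesicles in mammary gland, neurons and pancreatic islets. SLC30A2, SLC30A4 and SLC30A8 lay below the array medians in both groups, a level not shown to be above background. SLC30A4 was called at 0.20 ± 0.069 (limma adjusted p = 0.0353), with means of 5.65 ± 0.052 in Senescent cells and 5.44 ± 0.096 in Normal cells. That call was lost without Senescent array 1 (0.19), 2 (0.22) or 4 (0.19), and without Normal array 1 (0.20), 3 (0.17) or 4 (0.20). It was also lost with a variance trend and robust estimation (limma adjusted p = 0.0656). SLC30A2 (-0.13 ± 0.10), SLC30A3 (-0.10 ± 0.11) and SLC30A8 (-0.13 ± 0.080) did not pass. SLC30A2 was called lower with array weights (-0.25) and without both arrays numbered 3 (-0.25). In the same settings SLC30A3 was called lower, at -0.22 and -0.27. SLC30A3 also changed with single arrays: it passed downward at -0.23 without Senescent array 3, and was -0.031 without Senescent array 1 (limma adjusted p = 0.891).

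Of the 14 zinc importers of the SLC39A family 4 fell, 1 rose and 9 did not pass. A called share of 35.7% is close to the 34.0% of all genes, where 14.8% were lower and 19.2% higher. All 5 calls were in the LIV-1 subfamily, the larger branch of these transporters, where 4 of 9 fell and 1 rose; of the 5 importers outside it 0 were called, although all 5 of those differences were positive. Whether the subfamilies differ was not tested.

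SLC39A14, the hepatocyte importer of zinc, manganese and non-transferrin iron, fell most. Its log2 levels were 10.85, 10.93, 10.68 and 10.59 on Senescent arrays and 11.37, 11.41, 11.36 and 11.32 on Normal arrays. Every Senescent array was lower, arrays 3 and 4 furthest. The fall was 0.60 ± 0.079, or 1.52-fold (limma adjusted p = 4.17e-05). SLC39A5, a zinc importer of liver, gut and pancreas, measured 10.00, 9.94, 9.80 and 9.61 in Senescent cells against 10.39, 10.35, 10.44 and 10.43 in Normal cells. Here too no arrays overlapped, and Senescent array 4 was lowest. The difference was -0.56 ± 0.084, or 1.48-fold lower (limma adjusted p = 0.000118).

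SLC39A10, a plasma membrane importer that MTF1 represses in mouse and zebrafish when zinc is plentiful, lay at 9.10, 9.10, 8.85 and 8.95 on Senescent arrays and 9.47, 9.35, 9.52 and 9.37 on Normal arrays. The groups were separate, at a difference of -0.43 ± 0.077 (limma adjusted p = 0.000584). SLC39A7, which releases zinc from the endoplasmic reticulum and Golgi, was lower by a smaller margin. It measured 9.98, 10.06, 9.96 and 10.01 in Senescent cells against 10.29, 10.25, 10.36 and 10.14 in Normal cells, a difference of -0.26 ± 0.068 (limma adjusted p = 0.00940). SLC39A13, which moves zinc out of Golgi and vesicles and is needed in connective tissue, was the importer that rose. Its arrays lay at 9.23, 9.09, 9.18 and 8.98 in Senescent cells and 8.90, 8.81, 8.97 and 8.89 in Normal cells, so that the lowest Senescent and the highest Normal array nearly met. The difference was 0.22 ± 0.073 (limma adjusted p = 0.0283). It was no longer called without Senescent array 1 (0.19) or 3 (0.21), or without Normal array 1 (0.23), 2 (0.20) or 4 (0.22).

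The remaining importers gave differences between -0.0041 and 0.22. SLC39A4, the intestinal zinc importer lost in acrodermatitis enteropathica, differed by 0.19 ± 0.075 (limma adjusted p = 0.0673). It passed under 3 other settings of limma, with adjusted p = 0.0389 where dim genes were left out, 0.0164 with array weights and 0.0339 with a variance trend and robust estimation. SLC39A11 differed by 0.22 ± 0.099 and SLC39A1, a widespread surface importer, by 0.13 ± 0.070; each passed without Normal array 3, at 0.30 and 0.18. Without Normal array 2 neither was called, at 0.13 for SLC39A11 and 0.11 for SLC39A1. With array weights both were called, at 0.30 for SLC39A11 and 0.15 for SLC39A1. SLC39A11 was also called without both arrays numbered 3 (0.32). SLC39A3 gave 0.15 ± 0.079 and SLC39A9 0.10 ± 0.076. SLC39A6, a relative of SLC39A10, differed by -0.0041 with a 95% interval of -0.16 to 0.15. SLC39A2 (0.0038 ± 0.10), SLC39A8 (0.016 ± 0.10) and SLC39A12 (0.017 ± 0.085) lay below the array medians in both groups. SLC39A8 also carries manganese, as SLC39A14 and SLC30A10 do, and unlike them it was not called.

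**Figure D5:**
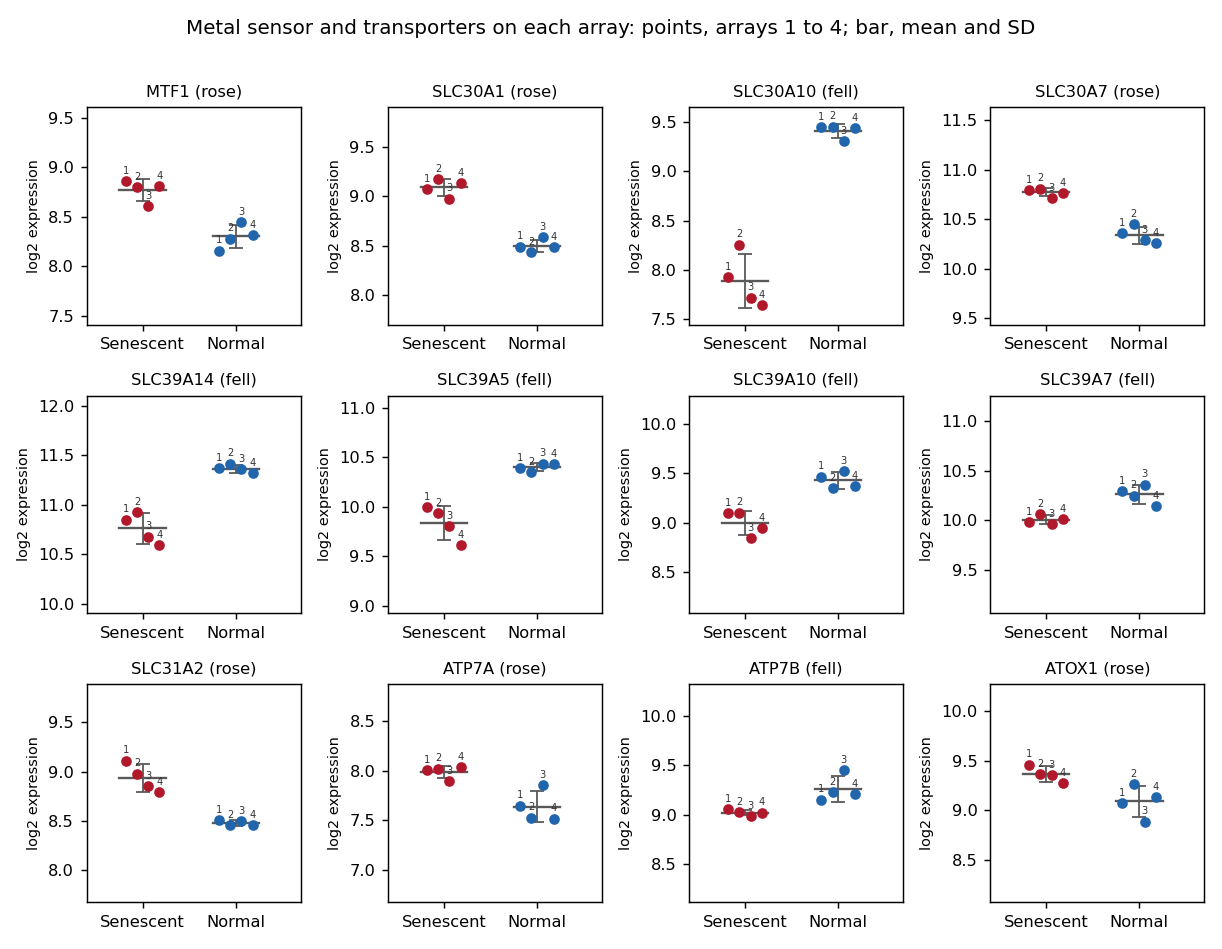
Log2 expression of MTF1, 10 transporters and the chaperone ATOX1 on each array, with Senescent on the left and Normal on the right of every panel; numbered points are arrays 1 to 4, the horizontal line is the group mean and the bar its SD, and all panels span the same log2 range. All 12 genes shown were called and have groups that do not overlap, so the panels do not stand for the 40 genes. Over all genes, the groups did not overlap for 18.9% with Senescent higher and for 14.8% with Senescent lower. The gap is widest for SLC30A10.

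Of the 6 copper genes 3 rose, 2 fell and CCS did not pass, and within each pair of related proteins the members differed in direction or in call. The called share was 83.3% of these 6, beside 34.0% of all genes. SLC31A2, which resembles the copper importer but sits mainly in endosomes and lysosomes, measured 9.11, 8.98, 8.85 and 8.79 on Senescent arrays and 8.51, 8.46, 8.50 and 8.46 on Normal arrays. The Senescent arrays were all higher and more spread, at a difference of 0.45 ± 0.076 (limma adjusted p = 0.000356). SLC31A1, the high-affinity copper importer CTR1, measured 11.12, 11.21, 11.03 and 11.06 in Senescent cells against 11.37, 11.37, 11.21 and 11.25 in Normal cells. Its groups touched, since Senescent array 2 lay just above Normal array 3, and the difference was -0.19 ± 0.070 (limma adjusted p = 0.0466). That call was lost without Senescent array 1 (-0.20), 3 (-0.17) or 4 (-0.18), and without Normal array 1 (-0.17), 2 (-0.17) or 4 (-0.21). It was also lost after quantile normalization (-0.16).

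ATP7A, the copper pump mutated in Menkes disease and mainly used outside the liver, rose. Its levels were 8.01, 8.02, 7.90 and 8.03 on Senescent arrays and 7.65, 7.53, 7.86 and 7.52 on Normal arrays, with Normal array 3 nearest to the Senescent arrays. The difference was 0.35 ± 0.082, or 1.28-fold (limma adjusted p = 0.00392). ATP7B, the liver pump mutated in Wilson disease, fell. It measured 9.06, 9.02, 8.98 and 9.02 in Senescent cells against 9.15, 9.23, 9.45 and 9.21 in Normal cells, the groups separate by a narrow margin and Normal array 3 highest. The difference of -0.24 ± 0.074 (limma adjusted p = 0.0228) was not called without Senescent array 4 (-0.24, adjusted p = 0.0536).

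ATOX1, the chaperone that hands copper to both pumps, measured 9.46, 9.37, 9.36 and 9.27 on Senescent arrays and 9.07, 9.27, 8.89 and 9.14 on Normal arrays. Senescent array 4 and Normal array 2 almost met. It rose by 0.27 ± 0.083 (limma adjusted p = 0.0201), a call lost without Senescent array 1 (0.24) or Normal array 1 (0.27). CCS, the chaperone that loads copper into superoxide dismutase 1, differed by 0.028 ± 0.069 with a 95% interval of -0.12 to 0.18. SOD1, its client, differed by -0.16 ± 0.064 (limma adjusted p = 0.0661).

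Other copper enzymes and copper delivery proteins were called in 10 of 27 measured cases, 5 higher and 5 lower, with a median of -0.049; a share of 37.0% is near that of all genes. LOX, the copper-dependent enzyme that cross-links collagen and elastin, fell by 3.24 ± 0.11, to 7.53 ± 0.23 in Senescent cells against 10.78 ± 0.16 in Normal cells (limma adjusted p = 1.43e-10). CP, the ferroxidase ceruloplasmin that receives copper from ATP7B, fell by 1.60 ± 0.14 and the amine oxidase AOC3 by 0.58 ± 0.095. The lysyl oxidase relatives LOXL4 (0.57 ± 0.094) and LOXL2 (0.54 ± 0.066) rose, as did COMMD1, a partner of ATP7B in copper export (0.43 ± 0.11).

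Among 13 metalloreductases and transporters of other divalent metals, 6 rose, 1 fell and the median was 0.075; the called share was 53.8%, beside 34.0% of all genes. The iron exporter SLC40A1, which hepcidin removes from the cell surface, rose by 1.32 ± 0.063 (limma adjusted p = 2.81e-09). SLC41A2, a magnesium transporter, rose by 0.82 ± 0.098 and STEAP3, which reduces iron and copper ahead of their uptake, by 0.66 ± 0.075. SLC11A2, the divalent metal importer DMT1, fell by 0.34 ± 0.069.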

How the data were processed

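The authors deposited a table of log2 expression values per probe set for 8 arrays; per the labels' protocols, biotin-labelled sense cDNA was hybridised. Summarization and normalization are not given in the sources used here, and the submitters' processing notes name limma without a role. The number of arrays limits the precision, and no detection call was used. The platform annotation pairs 19158 of 32321 probe sets with 1 symbol, 1388 with several and the rest with none. The probe set with the highest mean stood for each of 18404 genes; MT2A was the only member with 2 probe sets. limma 3.58.1 in R 4.3.3 fitted 1 mean per group over all genes, without a filter on low values, and was tested on simulated data. Intervals are unadjusted. Tables and figures used Python 3.11.15, pandas 2.3.3, numpy 2.4.6, scipy 1.17.1 and matplotlib 3.10.9. RefSeq (GRCh38.p14) gave promoter sequences and gene order only; the build behind the values is not named. The members and lists were chosen with earlier results of these data known. All members may be named; of each related list, up to 3 called rises and 3 called falls are. Alternatives were the replicate number as a block, quantile normalization, median centring, dim genes left out, probe sets averaged, array weights, a variance trend with robust estimation, and each array left out.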

Additional observations from a re-analysis of the deposited data

Results flagged for a closer look

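In 5 of 80 sets of 4 arrays, a single array stood apart from the others of its group by more than Dixon's 95% critical value allows, which chance does in about 1 of 20 sets. All 5 were arrays numbered 3. On Senescent array 3, MT1B was high at 8.50 (next highest 8.35), SLC39A1 at 9.29 (next highest 9.20), SLC39A3 at 8.36 (next highest 8.11) and SLC39A12 at 4.96 (next highest 4.73). On Normal array 3, SLC30A10 was low at 9.30 (next lowest 9.44). Without both arrays numbered 3, SLC30A10 differed by -1.50, MT1B by 0.15, SLC39A1 by 0.16 and SLC39A3 by 0.10.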

How the results depend on the processing

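Across 16 alternatives, 13 of the 20 called genes kept direction and call in each: MT2A, MT1E, MTF1, SLC30A1, SLC30A10, SLC30A7, SLC30A9, SLC39A14, SLC39A5, SLC39A10, SLC39A7, SLC31A2 and ATP7A. Leaving out each array in turn gave 15 to 20 called members, 9 to 13 higher and 5 to 8 lower, with 3 to 5 metallothioneins higher, and 5404 to 6755 genes called in all. The other settings gave 16 members (replicate block) to 28 (array weights). Over all 18404 genes, array weights gave 8373 calls and leaving out both arrays numbered 3 gave 7852, against 6259 in the main fit. Leaving out both arrays numbered 3, chosen after seeing the data, gave 2 metallothioneins higher in place of 4, and array weights gave 6, with MT1F and MT1M added. Both settings also called MT3 lower, at -0.29 and -0.27. The replicate numbers did not pair the arrays: deviations of same-numbered arrays correlated at -0.25 to 0.094, and 1 of 8 arrays correlated best with its own number. With the number as a block 5758 genes were called, and MT1B, SLC30A4 and SLC31A1 were no longer called (limma adjusted p = 0.0546, 0.0645 and 0.0550), nor was ATP7B, whose adjusted p of 0.050 lay just above the threshold; the block ended no other call. Median centring ended the calls of MT1X (adjusted p = 0.0527 in limma) and SLC31A1 (adjusted p = 0.0601). Signs turned only for uncalled genes. With array weights SLC39A12 gave -0.064, SLC39A2 -0.11 and SLC39A6 0.057, and without both arrays numbered 3 -0.083, -0.036 and 0.070. Leaving out single arrays, CCS ranged from -0.0019 to 0.061, SLC39A12 from -0.043 to 0.071, SLC39A2 from -0.048 to 0.085, SLC39A6 from -0.038 to 0.048 and SLC39A8 from -0.064 to 0.082. The cause was not tested. Leaving out dim genes kept 34 of the 40 members.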
